A study of Mus musculus with 24 samples.

Results

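The growth hormone receptor and insulin-like growth factor (IGF) axis was followed here through 10 genes chosen by symbol, which were Ghr, Stat5b, Socs2, Igf1, Igf2, Igfals, Igfbp1, Igfbp2, Igfbp3 and Igfbp4. All 10 were found among the 55797 gene names of the deposited count files. RNA was sequenced from liver and brain of male C57/BL6 mice whose treatment entry was 16 weeks. The 24 libraries formed 12 groups of 2, and in each tissue these were db/db mice on brazzein, db/db mice on sucrose, db/db mice on water, db/+ mice on brazzein, db/+ mice on sucrose and db/+ mice on water. The db/db mice are homozygous for the db allele of the leptin receptor gene Lepr and grow obese and diabetic, whereas db/+ mice carry 1 db allele beside a functional one. The db/+ mice are therefore not wild type, and no library without the db allele was in the comparison. Brazzein, here a form called 3M-Brazzein, is a sweet-tasting plant protein. The labels used here give no age, no dose of either sweetener, no brain region and no statement on pooling of animals.

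Growth hormone from the pituitary binds its receptor Ghr, and the associated kinase JAK2 then activates the transcription factor STAT5B. In hepatocytes STAT5B switches on Igf1 and Igfals, and it also switches on Socs2, whose product dampens the receptor's signal. Most circulating IGF-I is made by the liver and travels bound to an IGF binding protein, chiefly IGFBP-3 together with the acid-labile subunit encoded by Igfals, while IGFBP-1 and IGFBP-2 form smaller complexes that respond to feeding and insulin. Igf2, a fetal growth factor in rodents, is silenced in mouse liver after birth and stays on in the choroid plexus and the meninges of the brain.

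Promoters are shown for Igf1, Igfals and Igfbp2, which were lower in db/db than in db/+ livers and had a sequence in the RefSeq promoter table. Igfbp1 is shown as well, since its promoter is known from mammals to hold an insulin response sequence. The table, of the mouse build GRCm38.p6, held windows for 9 of the 10 genes, 17 windows in all, and Socs2 was not in it. Each line gives the 250 bases before a start site on the + strand, and capitals mark the motif searched. The Igf1 window is chr10:87860861-87861110, the Igfals window is the second of 3 and lies at chr17:24877981-24878230, the Igfbp2 window is the first of 2 and lies at chr1:72824230-72824479, and the Igfbp1 window is chr11:7197537-7197786.
Igf1: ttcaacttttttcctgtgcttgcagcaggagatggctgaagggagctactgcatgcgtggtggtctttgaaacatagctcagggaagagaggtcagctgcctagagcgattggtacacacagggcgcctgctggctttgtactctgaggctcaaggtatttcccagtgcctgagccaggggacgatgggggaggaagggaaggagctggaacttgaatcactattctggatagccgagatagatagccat
Igfals: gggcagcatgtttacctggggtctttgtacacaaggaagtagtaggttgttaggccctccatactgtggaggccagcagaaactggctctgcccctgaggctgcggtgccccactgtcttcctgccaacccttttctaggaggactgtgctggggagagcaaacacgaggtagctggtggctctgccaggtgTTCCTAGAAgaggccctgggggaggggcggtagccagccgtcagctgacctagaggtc
Igfbp2: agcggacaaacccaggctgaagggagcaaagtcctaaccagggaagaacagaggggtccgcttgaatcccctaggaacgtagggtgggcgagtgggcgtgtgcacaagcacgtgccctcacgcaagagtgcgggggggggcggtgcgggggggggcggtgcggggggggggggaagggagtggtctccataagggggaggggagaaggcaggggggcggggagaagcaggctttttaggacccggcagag
Igfbp1: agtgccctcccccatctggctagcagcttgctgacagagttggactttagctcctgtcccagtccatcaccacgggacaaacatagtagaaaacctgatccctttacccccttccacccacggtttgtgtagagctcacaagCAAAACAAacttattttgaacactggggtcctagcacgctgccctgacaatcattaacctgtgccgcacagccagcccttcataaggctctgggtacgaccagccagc
The STAT5-type motif TTCNNNGAA, which reads the same on both strands, was in 2 of the 17 windows, both of them of Igfals. In the window printed it read TTCCTAGAA with its first base 58 bases before the start site. In the other Igfals window, at chr17:24877594-24877843, it read TTCTCAGAA with its first base 236 bases before the start site. The motif was in 7.02% of the 32851 windows of the table. CAAAACAA, searched on both strands as part of the insulin response sequence, was in the Igfbp1 window 108 bases before the start site and in 2.21% of all windows. The 2 motifs share no overlap in these windows, and a match is a run of letters and not a measured binding site. In the GRCm38 annotation Igf1 overlaps the antisense gene Igf1os, and Igf2 overlaps Igf2os, Mir483 and Gm49394. The overlap is of whole gene spans. The library kit named in the labels does not mark strand, so reads from bases shared with these partners cannot be told apart by strand. Igf2os was counted as a gene of its own, with a mean of 0.668 CPM in db/db and 0.487 CPM in db/+ brains. Igf2 had 72.8 CPM in db/db and 70.9 CPM in db/+ brains. CPM here are counts scaled to library size.

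Depth was even across the series. Total estimated counts ran from 60384569 to 79385804 per liver library and from 58287665 to 77772849 per brain library. Markers matched the labelled tissues. The summed level of 6 hepatocyte genes, most of it Alb, was 54592 to 81418 counts scaled to library size (CPM) in db/db livers and 55399 to 76598 CPM in db/+ livers, against at most 9.92 CPM in any brain library. Lepr, summed over all its transcripts, was at 0.690 to 2.50 CPM in db/db livers and 1.90 to 18.9 CPM in db/+ livers. The log2 difference was -1.93 (edgeR quasi-likelihood test, adjusted p = 0.00788). It was not even over drinks, since the 2 db/+ sucrose livers were highest, at 14.0 and 18.9 CPM. Means in db/+ livers were 2.34 CPM on brazzein, 16.4 CPM on sucrose and 4.54 CPM on water. In db/db livers they were 1.54 CPM on brazzein, 2.03 CPM on sucrose and 1.02 CPM on water. In brain, Lepr was at 2.0 to 2.77 CPM in db/db mice and 3.13 to 3.87 CPM in db/+ mice, and its log2 difference of -0.48 did not pass the test (adjusted p = 0.157). A gene-level count does not separate the long signalling form of the receptor, so it is no check of the genotype labels. The genotype entry of the labels contradicted the sample title in 12 of 24 samples. These were all brain samples titled db/+ and all liver samples titled db/db, so by that entry each tissue would hold only 1 genotype. Genotype was taken from the titles. The deposited FPKM columns are headed Het where the title reads db/+ and Ko where it reads db/db.

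In liver, Igf1, Igfals, Igfbp2 and Socs2 were lower in db/db than in db/+ mice, while the receptor gene Ghr did not pass the test. Averaged over the 3 drinks, Igfbp2 was at 1.5% of its db/+ mean, Socs2 at 18%, Igfals at 32.4% and Igf1 at 40.5%. These 4 of the 9 genes that passed the filter on low counts were lower at an adjusted p under 0.05 and 0 were higher, while 15.2% of all 19352 liver genes passed the test, 7.27% of them lower and 7.91% higher. The median log2 difference of the 9 genes was -0.16, against -0.03 over all genes tested. Ghr, Stat5b, Igfbp1, Igfbp3 and Igfbp4 did not pass, and Igf2 was under the filter. In bulk tissue, fewer cells of a type and less RNA per cell cannot be told apart, and beside these results 0 of 6 hepatocyte markers passed the test, whereas 2 of 3 erythroid markers were higher, with summed levels of 732 to 2278 CPM in db/db livers and 422 to 763 CPM in db/+ livers. Of the hepatocyte genes, Alb had the higher mean in db/db livers (65201 CPM, against 56722 CPM in db/+ livers) and the other 5 had the lower mean, such as Apoa1 with 2921 CPM in db/db and 8025 CPM in db/+ livers (edgeR adjusted p = 0.149). Among lists of other liver cells, Lyve1 was the 1 of 3 sinusoidal endothelial markers that passed, higher by a log2 difference of 1.83 (edgeR adjusted p = 0.0129). Clec4g of the same list had the lower mean, 15.7 CPM in db/db and 25.4 CPM in db/+ livers. Hhip was the 1 of 4 stellate cell markers that passed, lower at -1.98 (edgeR adjusted p = 0.00317). Reln also had the lower mean in db/db livers. Lrat (10.8 CPM, against 7.58 CPM in db/+) and Colec11 (33.1 CPM, against 22.1 CPM in db/+) had the higher mean. The summed sinusoidal endothelial markers were at 30.6 to 80 CPM in db/db and 19.7 to 57.6 CPM in db/+ livers, and the stellate cell markers at 58.7 to 79.5 CPM in db/db and 48.6 to 86.3 CPM in db/+ livers. Of 6 markers of meningeal fibroblasts, Col1a1 was higher (1.40, adjusted p = 0.00844) and Islr lower (-0.73, adjusted p = 0.0478). The part of other cells and of blood RNA in the results was not tested.

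**Figure D1:**
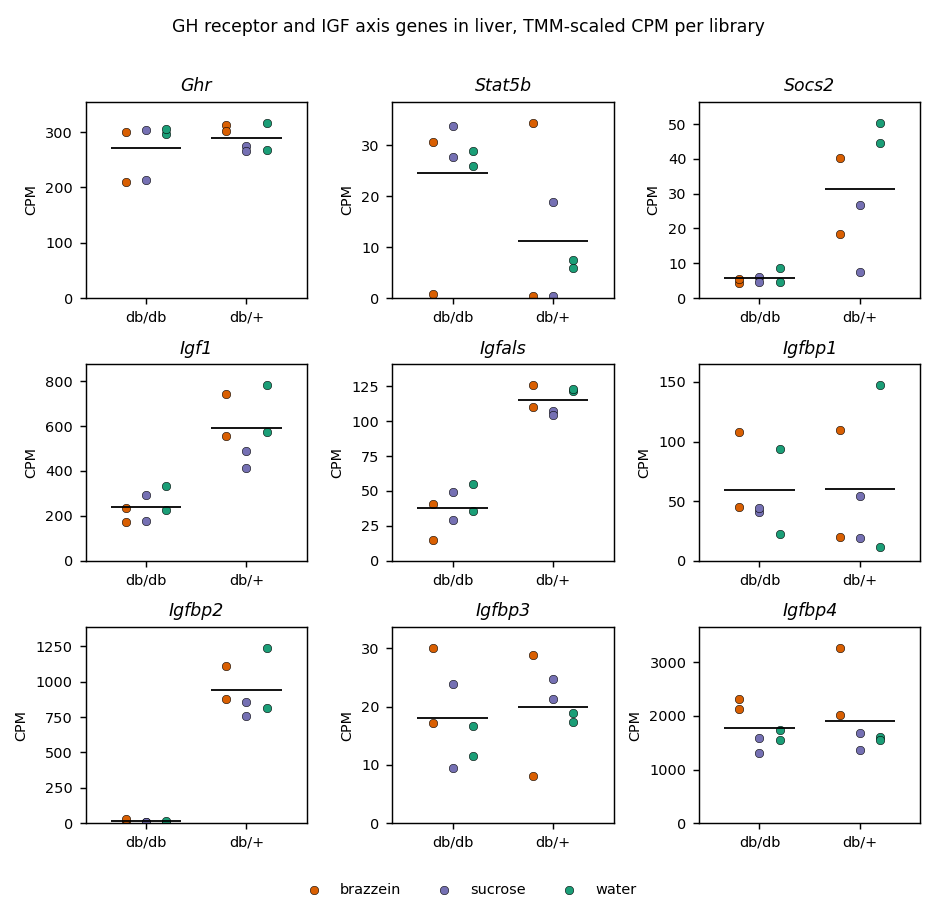
Level of each gene in each of the 12 liver libraries, in CPM with TMM-scaled library sizes on the y axis, for db/db mice on the left and db/+ mice on the right of each panel; points are libraries coloured by drink and lines are means of 6 libraries. Igf1, Igfals and Igfbp2 show no overlap between genotypes, with Igfbp2 at most 28.8 CPM in db/db livers and at least 759 CPM in db/+ livers.

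The receptor stands first in the pathway. Ghr had 210 CPM in the lowest, 299 CPM in the median and 307 CPM in the highest db/db liver, against 266, 288 and 317 CPM in db/+ livers. The genotypes overlapped, and the log2 difference was -0.10 (SE 0.12, edgeR adjusted p = 0.643). Per length, Ghr was the most abundant signalling gene of the axis in liver, with 70.5 ± 7.24 FPKM (the deposited level scaled for transcript length and depth) in db/db mice and 66.9 ± 9.41 FPKM in db/+ mice (SD, n = 6 each).

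Stat5b, the transcription factor that carries the growth hormone signal, could not be ranked between genotypes. In db/db livers it had 0.724 and 30.7 CPM on brazzein, 33.9 and 27.7 CPM on sucrose and 28.8 and 26 CPM on water, against 0.466 and 34.4 CPM on brazzein, 0.311 and 18.9 CPM on sucrose and 7.57 and 5.88 CPM on water in db/+ livers. Libraries of the same group thus differed by up to 73.9 times, and 1 db/db and 2 db/+ livers were near 0. The log2 difference was 1.19 with an SE of 1.19 (edgeR adjusted p = 0.545). Stat5a, a neighbouring and closely similar gene, also varied, from 1.26 to 18.9 CPM in db/db livers and from 0.986 to 10.1 CPM in db/+ livers (log2 difference 1.33, SE 0.54, edgeR adjusted p = 0.132), and reads shared by the pair may have been split between them. Low values in single libraries were not special to this pair. Of 6695 genes with a mean of at least 10 CPM over the livers, 133 and 237 were under 1 CPM in the db/db brazzein livers and 160 and 35 in the db/+ brazzein livers, against 15 to 31 in the other db/db livers and 51 to 96 in the other db/+ livers. Their part in the values of Stat5b was not tested.

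Socs2, the feedback inhibitor that STAT5B induces, was lower in db/db livers. It had 4.44 and 5.46 CPM on brazzein, 6.10 and 4.66 CPM on sucrose and 8.61 and 4.48 CPM on water in db/db livers, against 40.1 and 18.3 CPM on brazzein, 7.47 and 26.6 CPM on sucrose and 44.6 and 50.3 CPM on water in db/+ livers. The db/db livers were narrowly grouped, the db/+ livers were spread, and the genotypes overlapped through 1 db/+ sucrose liver at 7.47 CPM. The log2 difference was -2.36 (SE 0.37, edgeR adjusted p = 0.00642). Cish, another inhibitor induced by STAT5 and no member of the 10 genes, was at 0.586 to 6.82 CPM in db/db livers and 3.18 to 15.1 CPM in db/+ livers, with a log2 difference of -1.52 that did not pass (SE 0.44, edgeR adjusted p = 0.0531).

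Igf1, the hormone of the axis, was lower in every db/db liver than in every db/+ liver. It had 236 and 173 CPM on brazzein, 292 and 175 CPM on sucrose and 335 and 226 CPM on water in db/db livers, against 741 and 554 CPM on brazzein, 411 and 489 CPM on sucrose and 575 and 781 CPM on water in db/+ livers. The highest db/db value was a liver on water and the lowest db/+ value a liver on sucrose. The log2 difference was -1.29 (SE 0.19, edgeR adjusted p = 0.00486), and it ran between -1.43 and -1.09 over the alternatives tried. Igf2, the fetal ligand, was listed at 0 to 0.0790 CPM in db/db livers and 0 to 0.0843 CPM in db/+ livers and was not tested there.

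Igfals, which encodes the acid-labile subunit that holds IGF-I in its long-lived complex, was lower in db/db livers without overlap. It had 40.7 and 14.9 CPM on brazzein, 49.1 and 28.9 CPM on sucrose and 55.3 and 35.5 CPM on water in db/db livers, against 126 and 110 CPM on brazzein, 107 and 104 CPM on sucrose and 122 and 123 CPM on water in db/+ livers. The db/+ livers lay close together, while the db/db livers differed by more, the lowest being a brazzein liver. The log2 difference was -1.65 (SE 0.26, edgeR adjusted p = 0.00705).

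Igfbp2, a binding protein gene that leptin is known to raise in mouse liver, had by far the greatest difference of the 9 genes tested. It had 6.17 and 28.8 CPM on brazzein, 12.3 and 9.70 CPM on sucrose and 8.70 and 19.1 CPM on water in db/db livers, against 1113 and 879 CPM on brazzein, 859 and 759 CPM on sucrose and 815 and 1237 CPM on water in db/+ livers. Means were 14.1 ± 8.45 CPM in db/db and 944 ± 188 CPM in db/+ livers (SD, n = 6 each), 66.7 times as high in db/+. The log2 difference was -6.08 (SE 0.46, edgeR adjusted p = 0.000504). Igf1, Igfals and Igfbp2 were the 3 of 9 genes whose db/db and db/+ livers did not overlap, a pattern found in 8.43% of all liver genes tested.

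The other 3 binding protein genes did not pass the test. Igfbp1, an insulin-repressed gene, had 45.1 and 108 CPM on brazzein, 40.9 and 44.1 CPM on sucrose and 22.2 and 94.1 CPM on water in db/db livers, against 19.6 and 110 CPM on brazzein, 19.4 and 54.5 CPM on sucrose and 11.8 and 147 CPM on water in db/+ livers. Libraries of the same group differed by up to 12.4 times, and the log2 difference between genotypes was -0.00 with an SE of 0.71 (edgeR adjusted p = 1.0), so that a change of 2 times in either direction lay within 2 SE. Igfbp3, the main carrier of IGF-I in blood and made in rat liver largely by non-parenchymal cells, had 9.45 to 30.1 CPM in db/db livers and 8.10 to 28.8 CPM in db/+ livers (log2 difference -0.16, SE 0.36, edgeR adjusted p = 0.809). Igfbp4, which encodes an inhibitory binding protein, had 1308 to 2314 CPM in db/db livers and 1364 to 3262 CPM in db/+ livers (log2 difference -0.08, SE 0.13, edgeR adjusted p = 0.712).

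**Figure D2:**
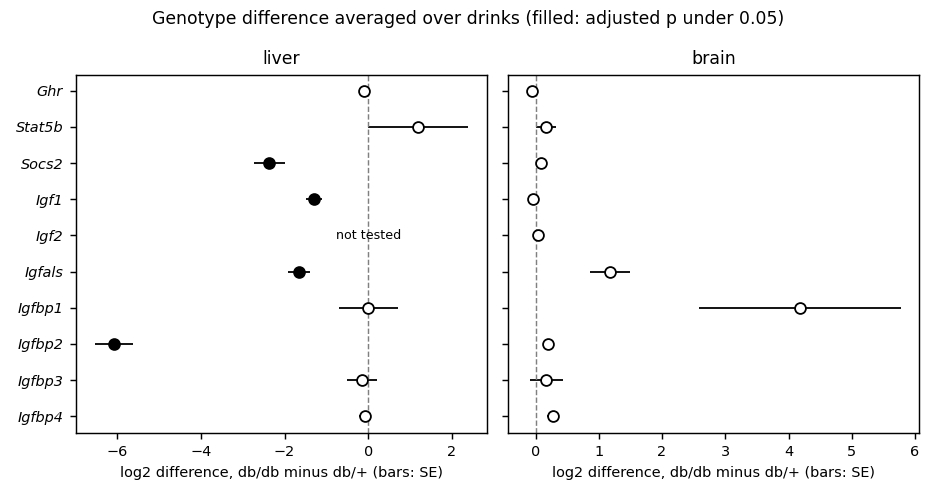
Log2 difference db/db minus db/+ averaged over drinks on the x axis for each gene, in liver on the left and brain on the right; points are edgeR estimates, bars are 1 SE, and filled points passed an adjusted p of 0.05. The 4 filled points are all in liver and lie at -1.29 or below, and Igf2 was not tested in liver.

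Levels per length showed how the liver's binding protein transcripts were made up. In db/db livers Igfbp4 led with 352 ± 62.1 FPKM, followed by Ghr, then Igfbp1 with 29 ± 15.9 FPKM and Igf1 with 27.2 ± 7.11 FPKM, which did not differ beyond their spread. Igfals with 11.3 ± 4.37 FPKM, Igfbp2 with 8.17 ± 4.71 FPKM and Igfbp3 with 5.23 ± 2.32 FPKM came next, each within the spread of its neighbour, and Stat5b with 3.65 ± 1.82 FPKM and Socs2 with 1.78 ± 0.541 FPKM were lowest apart from Igf2 (SD, n = 6). In db/+ livers Igfbp2 led with 487 ± 76.3 FPKM and Igfbp4 followed with 343 ± 132 FPKM, a gap no larger than the summed spread. Ghr and Igf1, with 58.7 ± 11.6 FPKM, were alike within their spread in db/+ livers, followed by Igfals with 30.8 ± 1.34 FPKM, Igfbp1 with 26.5 ± 23.9 FPKM, Socs2 with 8.86 ± 4.44 FPKM, Igfbp3 with 5.16 ± 1.98 FPKM and Stat5b with 1.49 ± 1.79 FPKM. Socs2 thus stood below Igfbp3 and Stat5b in db/db livers and above them in db/+ livers by mean. Igfbp2 made up 2.03% of the summed FPKM of Igfbp1, Igfbp2, Igfbp3 and Igfbp4 in db/db livers, with a range of 0.784% to 3.09%, and 57.3% in db/+ livers, with a range of 41.6% to 65.0%. Igfbp4 made up 89.4% in db/db and 39.1% in db/+ livers. The sum itself was 395 ± 73.3 FPKM in db/db and 861 ± 164 FPKM in db/+ livers (SD, n = 6 each).

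**Figure D3:**
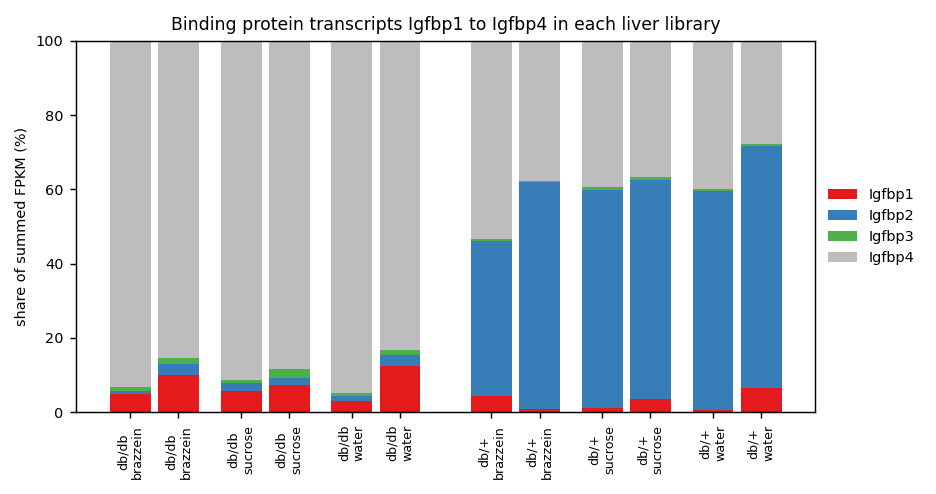
Share of the summed FPKM of Igfbp1, Igfbp2, Igfbp3 and Igfbp4 on the y axis, in percent, for each of the 12 liver libraries, with the 6 db/db libraries on the left and the 6 db/+ libraries on the right; each bar is 1 library. Igfbp2 takes at most 3.09% of any db/db bar and at least 41.6% of any db/+ bar.

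The same difference was examined on each drink, where each side had 2 libraries. Igfbp2 was the 1 gene of 9 that passed on each drink, lower in db/db livers by a log2 difference of -5.83 on brazzein (SE 0.78, edgeR adjusted p = 0.0156), -6.20 on sucrose (SE 0.80, adjusted p = 0.0229) and -6.20 on water (SE 0.80, adjusted p = 0.0189). Of all genes, 1.58% passed on brazzein, 0.868% on sucrose and 1.51% on water. The Igfbp2 call on water was lost without either db/db water liver or without replicate 2 of the db/+ water livers, with adjusted p of 0.0672 to 0.113. The call on sucrose was lost without any 1 of the 4 sucrose livers, with adjusted p of 0.0596 to 0.148. The log2 difference of Igfbp2 in those fits stayed at -5.73 or below. The call on brazzein held under every alternative run, but its size rested on single libraries, at -5.11 without replicate 1 and -7.33 without replicate 2 of the db/db brazzein livers.

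Igf1, Igfals and Socs2 had the same sign on every drink and did not pass by edgeR with TMM and all libraries. Igf1 differed by -1.66 (SE 0.32, edgeR adjusted p = 0.0527) on brazzein, -0.95 (SE 0.32, adjusted p = 0.196) on sucrose and -1.27 (SE 0.32, adjusted p = 0.0919) on water, all on the log2 scale. Igfals differed by -2.08 (SE 0.46, edgeR adjusted p = 0.0777) on brazzein, -1.44 (SE 0.45, adjusted p = 0.173) on sucrose and -1.43 (SE 0.45, adjusted p = 0.146) on water. Socs2 differed by -2.56 (SE 0.64, edgeR adjusted p = 0.0973) on brazzein, -1.66 (SE 0.62, adjusted p = 0.239) on sucrose and -2.86 (SE 0.65, adjusted p = 0.0737) on water. Igf1 on brazzein passed by edgeR with RLE factors (adjusted p = 0.0491) and with library totals (adjusted p = 0.0469). Igfals on brazzein was at -2.98 without replicate 1 of the db/db brazzein livers. That fit leaves replicate 2 alone in its group, the liver with 237 genes under 1 CPM as given above, whose part was not tested. Socs2 on water was at -2.85 without replicate 1 and at -2.85 without replicate 2 of the db/+ sucrose livers. Socs2 on sucrose rested on the db/+ sucrose livers, at -2.28 without replicate 1 and -0.45 without replicate 2. DESeq2 called 8 of the 27 tests where edgeR called 3, the others being Igf1 and Socs2 on brazzein and on water and Igfals on brazzein. Over all genes DESeq2 also made more calls in these 3 comparisons, 5253 against 766 by edgeR.

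Whether the drinks altered the axis was asked within each genotype. By edgeR, 0 of 9 genes passed in any of the 6 liver comparisons, and DESeq2 called 0 as well. Of all genes, 0.119% passed for brazzein against water in db/db livers, 0.16% for brazzein against sucrose in db/db livers and 0.00517% for sucrose against water in db/db livers. In db/+ livers 0.00517% passed for brazzein against water, 0.0207% for brazzein against sucrose and 0.0155% for sucrose against water. At an unadjusted p under 0.05 there were 4 of 54 tests, 3 of Igfbp4 and 1 of Socs2. Such a p was found for 827 to 2848 of all 19352 liver genes in each of the 6 comparisons. The interaction of genotype with drink gave 0 of 9 genes in each of 3 comparisons by edgeR and by DESeq2, with 0 of 27 tests at an unadjusted p under 0.05, where 0.0672% of all genes passed for brazzein against water, 0.0672% for brazzein against sucrose and 0.0155% for sucrose against water.

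Igfbp4 was the gene with the smallest p-values for a drink. It had 2125 and 2314 CPM on brazzein, 1582 and 1308 CPM on sucrose and 1745 and 1557 CPM on water in db/db livers, and 2009 and 3262 CPM on brazzein, 1676 and 1364 CPM on sucrose and 1599 and 1550 CPM on water in db/+ livers. All 4 brazzein livers were above all 8 livers on the other drinks. How many of all liver genes separate by drink in this way was not counted. The log2 difference of Igfbp4 between brazzein and sucrose was 0.62 in db/db livers (SE 0.23, edgeR adjusted p = 0.265, unadjusted 0.0260) and 0.79 in db/+ livers (SE 0.23, adjusted p = 0.409, unadjusted 0.00826). Between brazzein and water it was 0.43 in db/db livers (SE 0.23, edgeR adjusted p = 0.663) and 0.74 in db/+ livers (SE 0.23, adjusted p = 0.786, unadjusted 0.0114). These comparisons share the brazzein livers, and 3 of those 4 libraries are the ones with the most genes under 1 CPM given above, whose part was not tested. Socs2 was lower by 1.48 on the log2 scale on sucrose than on water in db/+ livers without passing (SE 0.62, edgeR adjusted p = 0.814, unadjusted 0.0433).

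**Figure D4:**
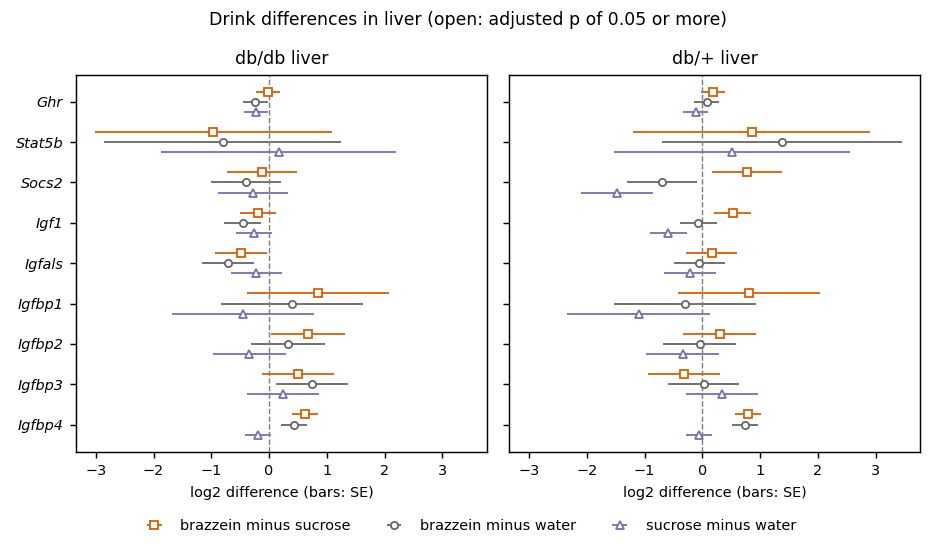
Log2 difference between drinks on the x axis for each gene, within db/db livers on the left and db/+ livers on the right; points are edgeR estimates for brazzein minus sucrose, brazzein minus water and sucrose minus water, and bars are 1 SE. All points are open because 0 passed an adjusted p of 0.05, and Igfbp4 lies at 0.43 or above in the 4 comparisons with brazzein.

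In brain the axis was present at other levels and 0 of 10 genes passed the test between genotypes by edgeR, against 0.00846% of 23653 genes, and DESeq2 called 0 of the 10 as well. Igf2 was at 61.6 to 79.4 CPM in db/db brains and 65.1 to 76.2 CPM in db/+ brains (log2 difference 0.04, SE 0.06, edgeR adjusted p = 0.853). Igf1 was at 8.20 to 9.70 CPM in db/db brains and 8.45 to 10.1 CPM in db/+ brains (log2 difference -0.04, SE 0.07, adjusted p = 0.864). Both ligand genes overlapped between genotypes over most of their range, and 0 of the 10 genes had groups without overlap, against 1.86% of all brain genes. Ghr was at 10.1 to 14.4 CPM in db/db brains and 10.5 to 13.7 CPM in db/+ brains, Socs2 at 12.1 to 15.2 CPM in db/db brains and 11.6 to 14.6 CPM in db/+ brains, and Stat5b at 27.3 to 45.4 CPM in db/db brains and 22.6 to 44.1 CPM in db/+ brains.

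Igfbp2, Igfbp4, Igfals and Igfbp1 had an unadjusted p under 0.05 in brain and did not pass after adjustment. Of all 23653 brain genes tested, 3275 had such a p. Igfbp2, which astrocytes and choroid plexus make, was at 50.6, 56.4 and 58.6 CPM (lowest, median and highest) in db/db brains, against 43.5, 49.2 and 51.6 CPM in db/+ brains. Its log2 difference was 0.20 (SE 0.06, edgeR adjusted p = 0.205), with an overlap between 50.6 and 51.6 CPM. Igfbp4 was at 70.2, 71.9 and 94.0 CPM in db/db brains, against 50.6, 63.5 and 74.8 CPM in db/+ brains (log2 difference 0.28, SE 0.10, edgeR adjusted p = 0.280). Igfals and Igfbp1 were near the limit of detection. Igfals was at 0.0801 to 0.468 CPM in db/db brains and 0.0439 to 0.195 CPM in db/+ brains (log2 difference 1.18, SE 0.31, edgeR adjusted p = 0.187). Igfbp1 was listed at 0 in 1 of 6 db/db and 5 of 6 db/+ brains and reached 0.214 CPM (edgeR adjusted p = 0.332). Beside these, the summed level of 6 hepatocyte genes was 3.30 to 9.92 CPM in db/db brains and 0.984 to 3.82 CPM in db/+ brains, and Alb was listed at 0 in 2 of 6 db/db and 6 of 6 db/+ brains with at most 4.82 CPM. The summed level of 7 choroid plexus genes, most of it Ttr, was 1158 to 1340 CPM in db/db brains and 773 to 1089 CPM in db/+ brains. Kl and Clic6, the highest of the others, had means of 29.4 and 26.7 CPM in db/db and 27.5 and 21.8 CPM in db/+ brains. Kcnj13 alone had the lower mean in db/db brains, 5.84 CPM against 6.02 CPM. The same 7 genes summed to 6426 to 11161 CPM in db/db and 5364 to 8436 CPM in db/+ livers, so their sum is not special to choroid plexus. The summed level of 6 meningeal genes was 80.4 to 96.4 CPM in db/db brains and 75.2 to 83.1 CPM in db/+ brains. In brain 0 genes of the hepatocyte, choroid plexus and meningeal lists passed the test. Their part in the values of Igfals, Igfbp1, Igfbp2 and Igfbp4 was not tested.

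**Figure D5:**
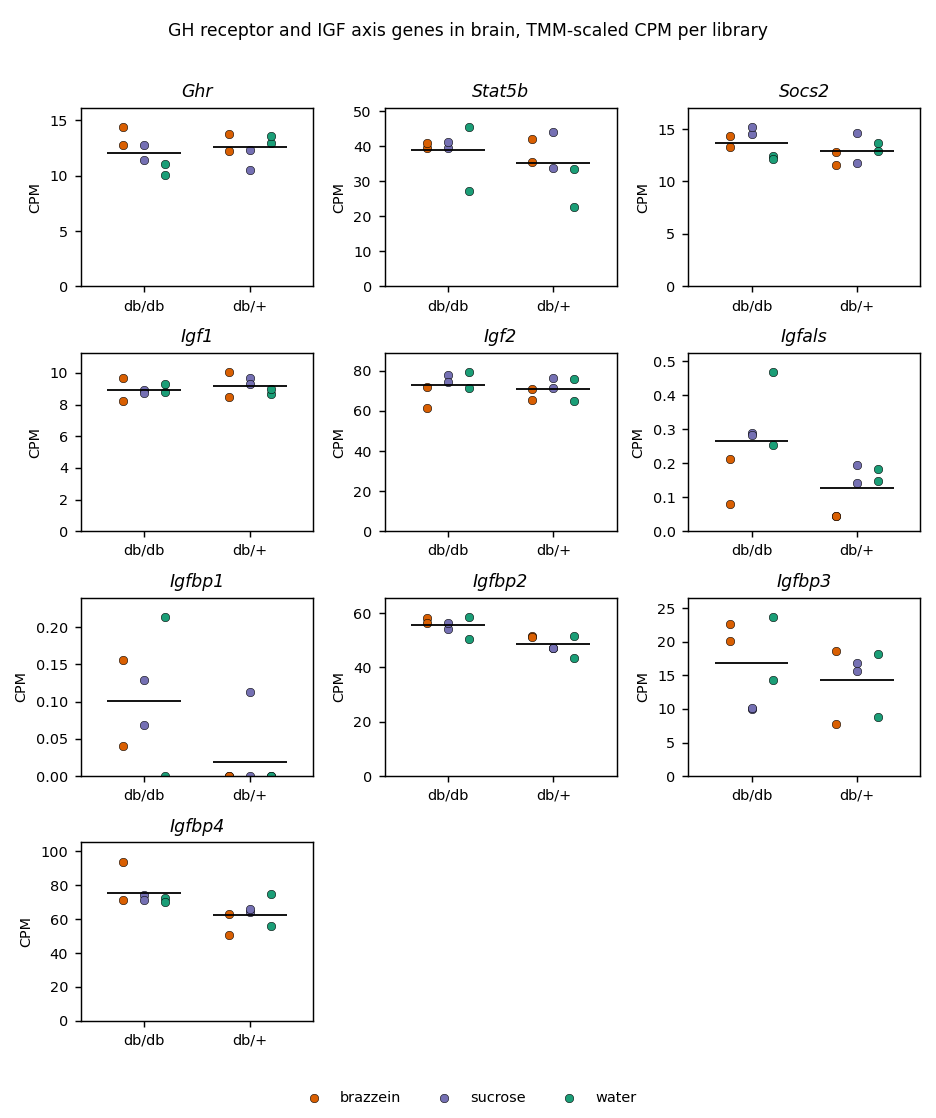
Level of each of the 10 genes in each of the 12 brain libraries, in CPM with TMM-scaled library sizes on the y axis, for db/db mice on the left and db/+ mice on the right of each panel; points are libraries coloured by drink and lines are means of 6 libraries. The genotypes overlap for all 10 genes, and Igfals and Igfbp1 stay under 0.5 CPM.

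On single drinks 0 of 10 genes passed between genotypes in brain by edgeR, against 0% of all genes on brazzein, 0% on sucrose and 0.00846% on water, with 4 of 30 tests at an unadjusted p under 0.05 and 0 called by DESeq2. On each drink, 1607 to 2205 of all 23653 genes had an unadjusted p under 0.05. Between drinks within a genotype 0 of 10 genes passed in brain, with 5 of 60 tests at an unadjusted p under 0.05 and 0 called by DESeq2. Such a p was found for 751 to 1704 of all 23653 genes in each comparison. Of all genes 0.00846% passed for brazzein against sucrose in db/db brains and 0% in each of the other 5 comparisons. Of these 5 tests, 3 were of Igfals, which had 0.212 and 0.0801 CPM on brazzein, 0.289 and 0.283 CPM on sucrose and 0.253 and 0.468 CPM on water in db/db brains, and 0.0439 and 0.0461 CPM on brazzein, 0.142 and 0.195 CPM on sucrose and 0.148 and 0.182 CPM on water in db/+ brains. The brazzein brains were lowest in both genotypes, at 3 to 15 estimated counts per library. The interactions in brain gave 0 of 10 genes by edgeR and by DESeq2, against 0% of all genes, with 0 of 30 tests at an unadjusted p under 0.05.

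Levels were also compared between liver and brain. In db/db mice 8 of 10 genes differed and in db/+ mice 9 of 10 did, near the shares of all 25725 genes in the joint fit, 79.2% and 79.6%. The median log2 difference of liver minus brain over the 10 genes was 3.30 in db/db and 5.37 in db/+ mice. Over all genes it was -0.59 in db/db and -0.61 in db/+ mice. The shares of all genes higher and lower in liver were not counted apart. Ghr was higher in liver by 5.47 on the log2 scale in db/db mice and by 5.50 in db/+ mice, Igfbp4 by 5.51 in db/db and 5.87 in db/+ mice, and Igf1 by 5.71 in db/db and 6.96 in db/+ mice. Igf2 was lower in liver in both genotypes, with fitted log2 differences of -10.49 in db/db and -13.17 in db/+ mice that rest on liver values at or near 0. The tissue order of Igfbp2 turned round with genotype, since its log2 difference of liver minus brain was -1.02 in db/db mice (SE 0.29, edgeR adjusted p = 0.00469) and 5.25 in db/+ mice (SE 0.34, adjusted p = 2.23e-09). Socs2 differed by -0.30 in db/db mice (SE 0.27, edgeR adjusted p = 0.314) and by 2.13 in db/+ mice (SE 0.28, adjusted p = 5.50e-06). Scaling by library totals alone ended the call of Igfbp3 in both genotypes, with log2 differences of 0.22 in db/db and 0.40 in db/+ mice, against 1.13 in db/db and 1.45 in db/+ mice with TMM. The same scaling gave Socs2 a called difference of -1.20 in db/db mice.

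The difference between genotypes was itself tested between tissues, in 1 fit of all 24 libraries. It passed for 4 of 10 genes, beside 9.75% of all genes, and the difference was the more negative in liver for all 4. The log2 genotype difference in liver minus that in brain was -6.26 for Igfbp2 (SE 0.43, edgeR adjusted p = 2.02e-06), -2.82 for Igfals (SE 0.40, adjusted p = 0.000592), -2.43 for Socs2 (SE 0.38, adjusted p = 0.00122) and -1.25 for Igf1 (SE 0.20, adjusted p = 0.00155). For Ghr it was -0.03 (SE 0.14, edgeR adjusted p = 1.0). The value of Igfals takes in a brain level of under 0.5 CPM.

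Other genes of the pathway were read from 3 lists. Among 18 genes of growth hormone and IGF receptors and signalling, 0 were higher and 1 was lower in db/db livers, where 7.91% of all genes were higher and 7.27% lower, with a median log2 difference of -0.03 that equals that of all genes. The 1 gene was Irs1, an adaptor of the IGF-I and insulin receptors, with 1.74 and 2.46 CPM on brazzein, 10.7 and 9.99 CPM on sucrose and 12.4 and 7.39 CPM on water in db/db livers, against 23.9 and 13.8 CPM on brazzein, 24.1 and 22.2 CPM on sucrose and 24.2 and 22.6 CPM on water in db/+ livers. The genotypes of Irs1 did not overlap (log2 difference -1.85, SE 0.20, edgeR adjusted p = 0.00169). Irs1 was also called on brazzein alone, with a log2 difference of -3.16 (SE 0.37, edgeR adjusted p = 0.0110). The call on brazzein includes both db/db brazzein livers, with 133 and 237 genes under 1 CPM as given above, whose part in it was not tested. Igf1r, the receptor of IGF-I, was at 1.41 to 2.68 CPM in db/db livers and 1.69 to 3.29 CPM in db/+ livers, which did not pass (edgeR adjusted p = 0.487). Of 9 other binding proteins, proteases and inhibitors 6 were tested in liver and 0 passed, with a median log2 difference of 0.22. Of 11 genes of hypothalamic and pituitary control of growth hormone 2 were tested in liver and 0 passed.

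In brain 0 of 18, 0 of 9 and 0 of 10 tested genes of these lists passed between genotypes, with median log2 differences of -0.01 for receptors and signalling, -0.03 for binding proteins and proteases and -0.11 for hypothalamic and pituitary control. Gh, the pituitary hormone, was at 0 to 2.90 CPM in db/db brains and 0.424 to 311 CPM in db/+ brains, with a log2 difference of -5.93 that did not pass (SE 1.98, edgeR adjusted p = 0.253). The summed level of 4 pituitary markers, Gh among them, was 1.58 to 5.23 CPM in db/db brains and 2.73 to 360 CPM in db/+ brains. Without the 3 brain libraries with the highest Gh, a setting chosen after seeing the data, 0 of the 10 axis genes passed as well. In the test of the genotype difference between tissues, Irs1 was called lower in liver (-1.75, edgeR adjusted p = 0.000191), while Stc1 (2.55, adjusted p = 0.0398) and Sstr3 (5.19, adjusted p = 0.0318) were called higher. Stc1 was at most 0.311 CPM and Sstr3 at most 0.0996 CPM in any liver.

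Genes whose profile over the 12 livers was most like that of an axis gene were found by the root mean square difference of log2(CPM + 1), centred on each gene's mean, among 6694 other genes with a mean of at least 10 CPM. Nearest to Igfals was Igf1 itself, at 0.350, followed by Keg1 at 0.392 and Nr1i3 at 0.406. Nearest to Igf1 were Albfm1 at 0.267, Slc16a10 at 0.269 and Ugt2b1 at 0.277. Nearest to Igfbp2 was Serpina1e at 0.626, with means of 23.1 CPM in db/db and 2199 CPM in db/+ livers, followed at a distance by Mup16 at 1.16 and Mup-ps17 at 1.16. Nearest to Socs2 were a gene named only by its Ensembl number at 0.399, Gm29966 at 0.487 and Rnase4 at 0.515. Nearest to Ghr were Timmdc1 at 0.122, Mto1 at 0.129 and F2 at 0.132. Serpina1e, the Mup genes and their like belong to families of near-identical copies whose reads may have been split, and all these libraries share the spread between db/db and db/+ livers.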

How the data were processed

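The authors deposited expected counts, 1 whole number per gene name for each of 24 samples, not scaled for library size and taken here as estimates, the counting tool not being given. The deposited series table gives FPKM, scaled by the authors for length and depth, and another 24 columns of it were not used here. Per the submitters' processing notes, bcl2fastq and the build GRCm39 were used. No aligner, counter or annotation is given in the sources used here. Per the labels' protocols, poly(A) RNA was prepared with TRIzol and a NEBNext Ultra II kit. Groups come from the sample titles. The count file headers of the db/+ brazzein livers carry each other's replicate number, so their FPKM columns were taken as the group only.

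Counts were tested in R 4.3.3 with edgeR 4.0.16 (TMM, filterByExpr, quasi-likelihood), 1 fit of 6 groups per tissue and 1 joint fit of 12 groups, with Benjamini-Hochberg adjustment over all genes and a threshold of 0.05. The steps were tested on simulated counts. FPKM served to compare genes with each other. The SE is the log2 difference divided by the square root of F. Nothing in the labels says that replicates are separate animals, so p-values measure the spread between samples, which may be technical. Counting intervals were left out, since estimated counts are not reads.

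The members and lists were chosen with earlier results of these data known. All 10 members were named in every comparison, listed genes only where they passed or bore on a member, and Lepr as the altered gene. Cish, Igf1r, Stat5a and Gh were named after their values were seen. Likeness was computed for Ghr, Igf1, Igfals, Igfbp2 and Socs2. Alternatives were DESeq2 1.42.0, RLE factors, library totals, no filter, a replicate block, leaving out each library and, chosen after seeing the data, leaving out the 4 brazzein livers or 3 brain libraries.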

Additional observations from a re-analysis of the deposited data

Results flagged for a closer look

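Between liver and brain, the genotype difference itself differed for 4 genes by a test in 1 fit of all libraries, with log2 values in liver minus brain of -6.26 for Igfbp2, -2.82 for Igfals, -2.43 for Socs2 and -1.25 for Igf1.

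In 37 sets of 6 libraries of 1 tissue and genotype, the gap of an end library to its neighbour was divided by the whole range. This share was above the critical ratio of 0.625 in 4 sets. For independent values from 1 normal distribution about 1 set in 20 exceeds it. The sets pool the drinks on the unlogged scale and share libraries, so that rate need not hold here. Igfbp4 was at 3262 CPM in replicate 2 of the db/+ brazzein livers, the highest of 6. Igfbp4 was also at 94.0 CPM in replicate 2 of the db/db brazzein brains, the highest of 6. Stat5b was at 0.724 CPM in replicate 1 of the db/db brazzein livers, the lowest of 6. Stat5b was at 27.3 CPM in replicate 2 of the db/db water brains, the lowest of 6.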

How the results depend on the processing

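The 4 liver calls of Igf1, Igfals, Igfbp2 and Socs2 between genotypes held under all alternatives, with log2 ranges of -1.43 to -1.09 for Igf1, -1.94 to -1.41 for Igfals, -6.56 to -5.82 for Igfbp2 and -2.56 to -1.95 for Socs2, and 4 members were called without the 4 brazzein livers as well. The 4 tissue by genotype calls also held, and DESeq2 added Igfbp1 (-3.80, adjusted p = 0.0437). No called value changed sign. Library totals in place of TMM moved the log2 differences of the members by a median of 0.17 between genotypes in liver and by -0.91 in db/db and -1.05 in db/+ mice between liver and brain, and with it Ghr, Igfbp1, Igfbp3 and Igfbp4, which were not called between genotypes in liver, turned positive. Stat5b, also not called there, ran from -0.28 to 2.95 over the alternatives.

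Counts over all genes moved more. With DESeq2, calls numbered 4646 for liver genotype, against 2937 by edgeR, 5253 for liver genotype by drink, against 766 (8 members, against 3), 2651 for liver drink, against 63, 800 for liver interaction, against 29, 699 for brain genotype, against 2, 581 for brain genotype by drink, against 2, 525 for brain drink, against 2, 267 for brain interaction, against 0, and 4477 for the tissue by genotype difference, against 2509. The cause was not tested. Without a filter on low counts, brain genotype gave 1 and brain drink 6. RLE factors gave 0 for brain genotype by drink. Without the 3 brain libraries with the highest Gh, brain genotype gave 6.

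Leaving out each library in turn, which assumes that the lone library of a group varies like the others, gave 1407 to 3402 calls for liver genotype, 235 to 1410 for liver genotype by drink (2 to 4 members), 48 to 515 for liver drink, 24 to 317 for liver interaction, 1 to 42 for brain genotype, 5 to 74 for brain genotype by drink, 8 to 146 for brain drink, 4 to 85 for brain interaction and 1800 to 3371 for the tissue by genotype difference, with 4 members in both liver genotype and tissue by genotype difference, 17 to 18 members for liver against brain and 0 members in each of the others.

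Over all genes tested, libraries with the same replicate number showed no common deviation, with correlations of deviations from -0.121 to 0.0931 in liver and -0.0513 to 0.0522 in brain and 0 of 15 pairs of groups over 0.1 in each tissue. The db/+ brazzein livers were numbered by their samples there, and the correlations were not repeated with the numbers in their headers. A correlation over all genes cannot show a factor that acts on few genes. With the replicate number as a block, calls numbered 413 for liver genotype by drink, 40 for liver drink, 0 for brain genotype, 0 for brain genotype by drink and 1 for brain drink, and the block changed no member's call. With 2 libraries a group, drink comparisons could show only large changes, and Igf2 in liver and Igfals and Igfbp1 in brain were near 0.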

Other observations

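Igfbp1 and Igfbp3 were each higher in the library numbered 2 than in the library numbered 1 in 6 of 6 liver groups. For Igfbp1 the ratio ran from 1.08 to 4.25 in db/db groups and from 2.80 to 12.4 in db/+ groups, and for Igfbp3 from 1.45 to 2.53 in db/db groups and from 1.09 to 3.55 in db/+ groups. The count file headers of the db/+ brazzein livers carry each other's number. Numbered by those headers, Igfbp1 and Igfbp3 were each higher in library 2 in 5 of 6 groups, and the db/+ ratios ran from 0.178 to 12.4 for Igfbp1 and from 0.281 to 1.16 for Igfbp3. Tat, which encodes tyrosine aminotransferase, a fasting and glucocorticoid-induced enzyme of hepatocytes, was higher in the library numbered 2 in 2 of 3 db/db groups and 3 of 3 db/+ groups. Igf1 and Igfals were lower in the library numbered 2 in 3 of 3 db/db groups, and lower in 1 of 3 and 2 of 3 db/+ groups. Numbered by the headers, Tat was higher in library 2 in 2 of 3 db/+ groups, and Igf1 and Igfals were higher there in 3 of 3 and 2 of 3 db/+ groups. Nothing in the labels says what a number stands for. The pattern was noticed in the data among the genes of the axis and was not tested. How many of all liver genes go 1 way in 6 of 6 groups was not counted.

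The share of Igfbp2 in the summed FPKM of the 4 binding protein genes was 61.8% in db/db brains, with a range of 57.1% to 65.4%, and 63.0% in db/+ brains, with a range of 55.5% to 70.9%. The brain share in both genotypes thus lay near the 57.3% of db/+ livers and far from the 2.03% of db/db livers.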
